A study of Rattus norvegicus with 10 samples.

Results

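The S100 genes encode small calcium-binding proteins, and 10 of them were followed here in messenger RNA reads from the hippocampus of rats with traumatic brain injury (TBI). They are S100a1, S100a4, S100a6, S100a8, S100a9, S100a10, S100a11, S100a13, S100a16 and S100b, of 16610 gene symbols named in the table of 32041 RNA records. The members were chosen by their family name, with earlier results of these data known, and each was read from the row selected on the highest mean count. Each member had a single row, so that choice set nothing aside. The rats were adult male Sprague-Dawley rats that weighed 330 to 371 g at the time of TBI. The 5 TBI rats received a lateral fluid percussion, a pressure pulse on the exposed dura, through a craniectomy of 5 mm over the left parietal lobe. The mean severity of the impact in the study was 3.32 atm. The 5 sham rats had the same anaesthesia and surgery without the pulse. All tissue came from the left hippocampus 3 months later, labelled as dorsal hippocampus and described in the protocol as CA3 with dentate gyrus, and the labels do not say which rats had seizures.

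S100 proteins are compact proteins with EF-hand motifs that bind calcium, and most of them work as dimers that dock onto a target protein once calcium is bound. S100b is a classic protein of astrocytes and is measured in blood as a sign of brain injury. S100a8 and S100a9 form calprotectin, a major protein of neutrophils, whereas S100a4, S100a6, S100a10 and S100a11 are found in many motile, dividing or reactive cells and bind annexins or non-muscle myosin. S100a10, also called p11, is the family member that has lost calcium binding and pairs with annexin A2.

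The family is spread over a pair of chromosomes. In the RefSeq gene table all members but S100b lie on chromosome 2, and S100b lies on chromosome 20. S100a1 is followed by S100a13, S100a4 and S100a6 are separated by S100a5 alone, and S100a11 is followed by S100a10. The 250 bases before the annotated start are shown for the 3 members with the largest differences between groups, and for S100b as the astrocyte member. They come from RefSeq on build GRCr8, which is not the build of the read alignment, and are written 5′ to 3′ on the strand of the gene. Capitals mark TATAAA in S100a4, GGGCGG in S100a6 and S100a11 (in S100a11 a pair of matches shares 1 base), and CCAAT or its reverse complement in S100b.
S100a4, chr2:178388279-178388528, + strand: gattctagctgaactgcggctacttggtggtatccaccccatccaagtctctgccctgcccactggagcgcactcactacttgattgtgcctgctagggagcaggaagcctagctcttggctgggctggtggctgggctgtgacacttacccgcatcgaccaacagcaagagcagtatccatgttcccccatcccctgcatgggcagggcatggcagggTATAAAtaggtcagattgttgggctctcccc
S100a6, chr2:178398287-178398536, + strand: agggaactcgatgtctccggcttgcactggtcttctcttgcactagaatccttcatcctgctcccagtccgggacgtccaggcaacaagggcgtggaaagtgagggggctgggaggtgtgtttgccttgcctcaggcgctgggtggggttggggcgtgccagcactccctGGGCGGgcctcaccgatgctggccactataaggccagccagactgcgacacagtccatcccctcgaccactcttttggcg
S100a11, chr2:181874882-181875131, + strand: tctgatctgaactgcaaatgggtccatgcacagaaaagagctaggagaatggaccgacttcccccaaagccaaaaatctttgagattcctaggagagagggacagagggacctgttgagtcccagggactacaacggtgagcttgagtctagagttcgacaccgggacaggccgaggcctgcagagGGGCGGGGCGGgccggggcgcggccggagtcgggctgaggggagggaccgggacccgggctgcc
S100b, chr20:12381082-12381331, - strand: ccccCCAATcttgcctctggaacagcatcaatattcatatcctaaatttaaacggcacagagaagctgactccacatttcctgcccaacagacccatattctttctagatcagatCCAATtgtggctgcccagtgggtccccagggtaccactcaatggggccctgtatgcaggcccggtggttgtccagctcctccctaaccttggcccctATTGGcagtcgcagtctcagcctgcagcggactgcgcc

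No motif searched was in all of these windows. RefSeq gave windows for 7 members, and S100a1, S100a8 and S100a10 had no entry. On either strand, TATAAA was found before S100a4, 31 bases from its start, and before S100a9, and in 13.1% of all 27457 windows. GGGCGG, the letters of a GC box, was found before S100a6, S100a11 and S100a13, and in 32.4% of all windows. CCAAT was found before S100a13 and S100b, and in 34.3% of all windows. The AP-1 letters TGANTCA and the STAT letters TTCNNNGAA were in 0 of the 7 windows and in 6.36% and 7.52% of all windows.

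Depth was 23425817 to 31671838 counts per library. Ribosomal RNA took 58.5% and 59.0% of the counts in sham replicates 5 and 4 and from 12.5% to 26.2% in the other 8 rats, and its share differed between groups (two-sided exact permutation p = 0.0238). Levels are therefore given as CPM, counts scaled to a common library size corrected by the trimmed mean of M-values (TMM). On this scale 1 count was worth 0.0680 and 0.0625 CPM in sham replicates 4 and 5 and from 0.0259 to 0.0359 CPM elsewhere, so low values were coarsest in those 2 rats. The summed level of the CA3 markers was from 267 to 366 CPM in sham and from 263 to 374 CPM in TBI rats. CA1 markers were present too, from 49.6 to 106 CPM in sham and from 37.4 to 376 CPM in TBI rats, and dentate granule cell markers were at 54.5 CPM in sham replicate 1 and from 74.7 to 190 CPM in the other rats. Transcript lengths were not used here, so levels are compared between rats and not between genes.

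Of the 10 members, 8 had a total of at least 44 counts and were tested with all 22431 rows that passed this filter, and the lowest total among them was 387 counts, for S100a11. All 8 had a higher fitted level in TBI, where 47.8% of all rows tested did. An adjusted p under 0.05 was reached by 0 of the 8 and by 0% of all rows in the quasi-likelihood test of edgeR. Before adjustment, 1769 rows had a p under 0.05. With DESeq2, 0 of the 8 passed as well, and 3 rows did in all. An unadjusted p under 0.05 with a higher level in TBI was reached by 7 of the 8, against 4.89% of all rows, and with a lower level by 0 of the 8, against 3.00% of all rows. The median log2 change was 0.33 over the 8 members and -0.01 over all rows. The sham and TBI rats overlapped in all 8 members, while 0.499% of all rows were higher in TBI without overlap. The members vary together across the same rats and are not independent of each other. In tissue RNA, more cells of a type and more RNA per cell cannot be told apart.

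Considering the motility-linked members first, S100a4, S100a6 and S100a11 had the largest differences, with fitted folds from 2.17 to 2.29. S100a4, which binds non-muscle myosin, was at 3.12, 5.53, 10.3, 3.74 and 4.94 CPM in sham replicates 1 to 5 and at 19.4, 13.4, 4.93, 13.4 and 13.5 CPM in TBI replicates 1 to 5. All TBI rats but replicate 3 were above the highest sham rat, and TBI replicate 3 lay among the sham rats. The mean was 5.53 CPM ± 2.85 (SD, n = 5) in sham and 12.9 CPM ± 5.15 (SD, n = 5) in TBI. The log2 change was 1.196 ± 0.422 (SE), a fold of 2.29 with a 95% interval from 1.18 to 4.46. Its unadjusted p in edgeR was 0.0205 and its adjusted p was 0.555.

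S100a6, or calcyclin, binds the ubiquitin ligase adaptor Cacybp and annexins. Its levels were 1.25, 1.01, 1.49, 1.09 and 1.56 CPM in the sham rats and 4.93, 3.51, 0.733, 2.25 and 2.46 CPM in the TBI rats, in replicate order. The sham rats lay close together, 4 of the 5 TBI rats were above all of them, and TBI replicate 3 was below all of them. Behind these levels were 16 to 46 counts in sham and 25 to 170 counts in TBI libraries. The mean was 1.28 CPM ± 0.244 (SD, n = 5) in sham and 2.78 CPM ± 1.56 (SD, n = 5) in TBI, so the spread was wider among injured rats. The log2 change was 1.12 ± 0.412 (SE), and the adjusted p in edgeR was 0.555.

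S100a11, or calgizzarin, binds annexin A1. It was at 0.343, 0.826, 1.30, 0.748 and 0.437 CPM in the sham rats and at 2.46, 1.44, 1.03, 1.83 and 1.63 CPM in the TBI rats, in replicate order. The overlap came from a single pair, since sham replicate 3 lay above TBI replicate 3 and every other sham rat lay below every TBI rat. These levels rest on few reads, with 7 counts in sham replicate 5 and at most 85 counts in any library. The mean was 0.731 CPM ± 0.377 (SD, n = 5) in sham and 1.68 CPM ± 0.531 (SD, n = 5) in TBI. The log2 change was 1.16 ± 0.307 (SE). Its unadjusted p in edgeR, 0.00158, was the smallest of the members, and its adjusted p was 0.478. The RefSeq table lists pseudogenes and near copies of S100a11, and a pseudogene of S100a10. Reads of 36 bases may be shared with these, so both values are uncertain.

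S100a10 carries annexin A2 and channel proteins to the cell surface. It was at 6.24, 4.63, 4.03, 5.71 and 8.996 CPM in the sham rats and at 8.46, 7.37, 3.58, 5.47 and 11.4 CPM in the TBI rats. The groups overlapped through most of their range, with TBI replicate 5 alone above the highest sham rat and TBI replicate 3 below the lowest. The log2 change was 0.32 ± 0.316 (SE), with a 95% interval from -0.39 to 1.03 and an adjusted p in edgeR of 0.856. The interval spans 0 and reaches nearly the size seen in S100a4, so neither could be set aside with these rats.

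**Figure D1:**
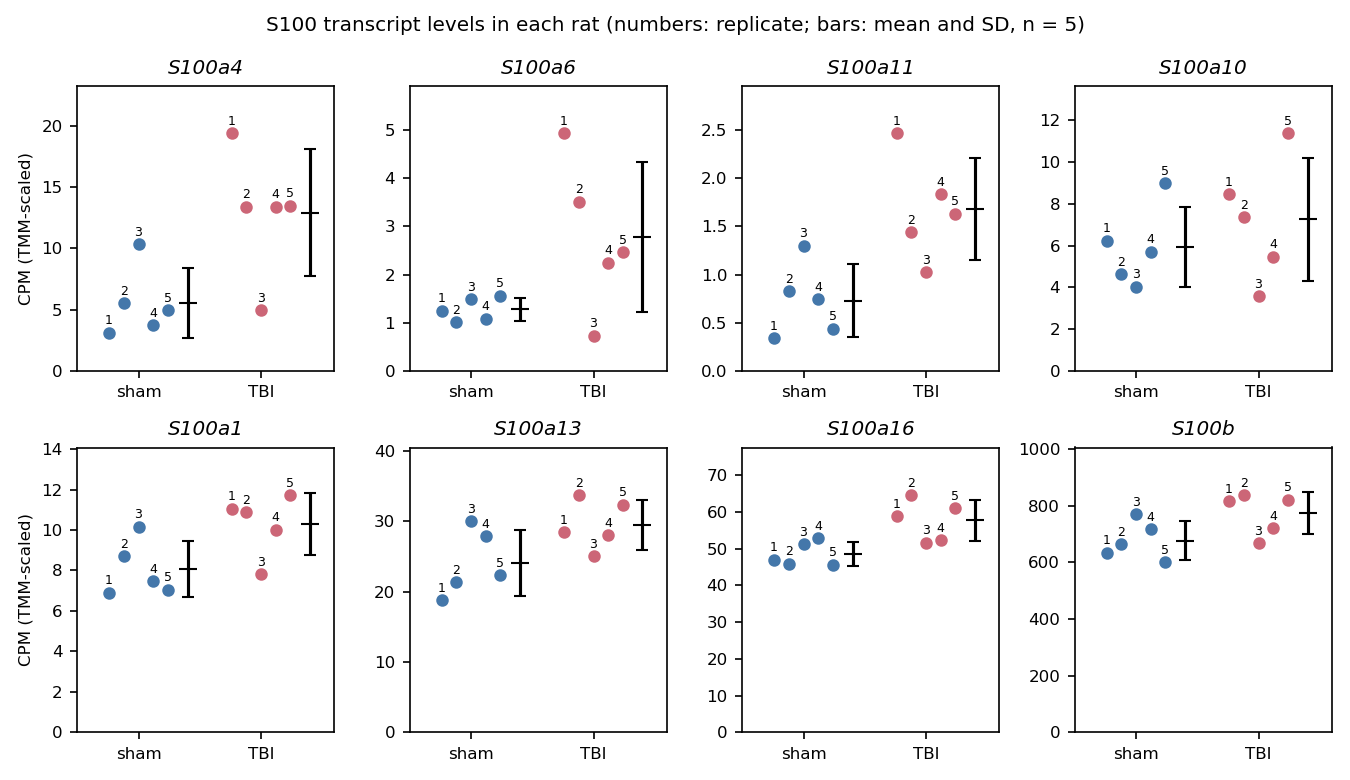
Level of each tested S100 member in each rat, in TMM-scaled CPM on a linear axis from 0, with a separate axis for each gene. Points are rats numbered by replicate (blue sham, red TBI) and black bars give the mean and SD of 5 rats. TBI replicate 3 is the lowest TBI rat in all 8 panels, and S100a4, S100a6 and S100a11 show the widest gap between the other TBI rats and the sham rats.

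S100b, the astrocyte member, was at 634, 665, 770, 716 and 600 CPM in the sham rats and at 816, 838, 668, 721 and 821 CPM in the TBI rats. TBI replicates 1, 2 and 5 were above all sham rats, and TBI replicates 3 and 4 lay among them. The mean was 677 CPM ± 67.6 (SD, n = 5) in sham and 773 CPM ± 74.1 (SD, n = 5) in TBI, from at least 9597 counts in each library. Its log2 change was 0.19 ± 0.0909 (SE), a fold of 1.14, and its adjusted p in edgeR was 0.633. The 95% interval of the log2 change ran from 0.00 to 0.38, below the estimates for S100a4, S100a6 and S100a11. It overlapped the intervals of S100a4 (0.23 to 2.16) and S100a6 (0.21 to 2.03), but not that of S100a11 (0.51 to 1.81). Whether the change differed between members was not tested.

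S100a1, which binds the ryanodine receptor and is known from heart and brain, was at 6.90, 8.69, 10.2, 7.48 and 7.06 CPM in the sham rats and at 11.04, 10.9, 7.80, 10.0 and 11.7 CPM in the TBI rats. Sham replicate 3 was the highest sham rat and reached the level of TBI replicate 4. The mean was 8.06 CPM ± 1.37 (SD, n = 5) in sham and 10.3 CPM ± 1.52 (SD, n = 5) in TBI, with a log2 change of 0.35 ± 0.127 (SE). Its chromosomal neighbour S100a13, which takes part in the export of the growth factor Fgf1, ranged from 18.8 to 30.1 CPM (median 22.4) in sham and from 25.0 to 33.8 CPM (median 28.4) in TBI. Sham replicates 3 and 4 lay within the TBI range, and the log2 change was 0.30 ± 0.120 (SE). S100a16, a widely expressed member, was at 47.0, 45.9, 51.3, 52.9 and 45.7 CPM in the sham rats and at 58.8, 64.6, 51.6, 52.3 and 61.0 CPM in the TBI rats. The overlap was narrow, with sham replicate 4 alone above any TBI rat. Its log2 change was 0.25 ± 0.0815 (SE), the smallest standard error of the members. The adjusted p in edgeR was 0.540 for S100a1, 0.577 for S100a13 and 0.487 for S100a16.

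The calprotectin pair had few counts. S100a8 had 5 counts over the 10 libraries, with 1 count in sham replicate 2, 1 in TBI replicate 4 and 3 in TBI replicate 5. S100a9 had 10 counts, at 3, 2, 0, 2 and 1 in the sham rats and 0, 0, 1, 1 and 0 in the TBI rats. No library had more than 3 counts of either, so both stayed under the filter and were not tested. In the fit without a filter, S100a9 was lower in TBI with an unadjusted p in edgeR of 0.0259 and an adjusted p of 0.610, on 8 counts in sham and 2 in TBI rats, and S100a8 had an adjusted p of 0.835. Of 8 neutrophil markers listed, 7 were matched, and their summed level was from 3.81 to 6.95 CPM in sham and from 5.10 to 7.10 CPM in TBI rats, most of it from Csf3r and Ltf. Csf3r, a cytokine receptor that microglia also express, was at 2.63 CPM in sham and 3.80 CPM in TBI, with an unadjusted p in edgeR of 0.0332. Ltf was at 1.27 CPM in sham and 1.13 CPM in TBI, and Elane, Ngp and Mmp8 had at most 2 counts in any library.

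**Figure D2:**
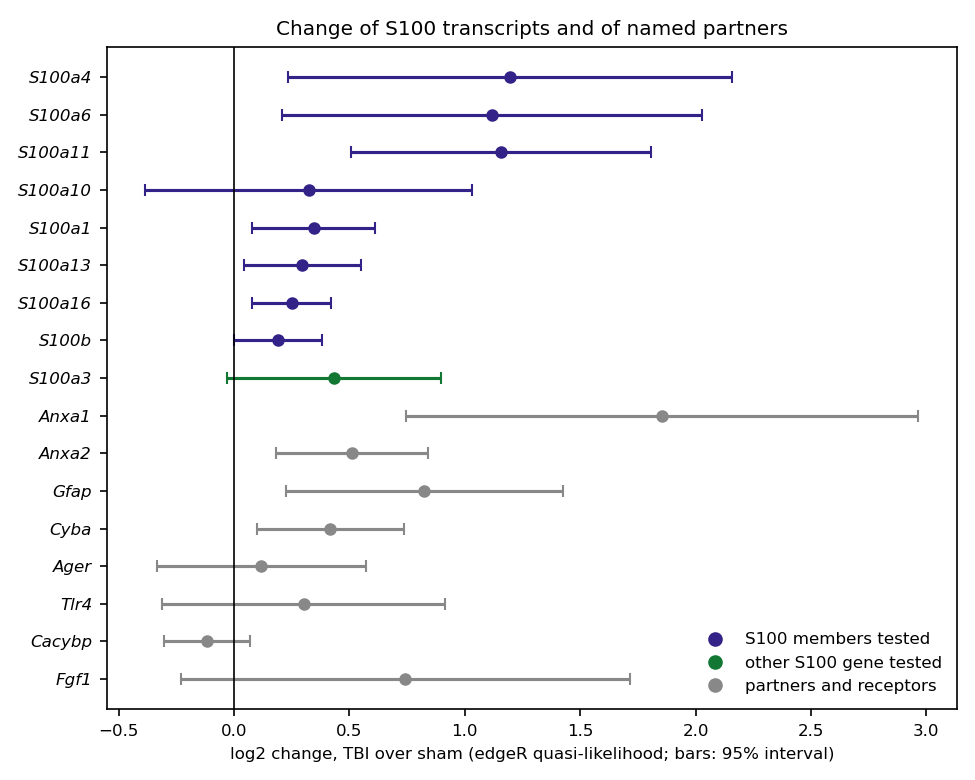
Log2 change, TBI over sham, of the 8 tested S100 members, of S100a3 and of the named partners, with points for the edgeR estimate and bars for its 95% interval. S100a4, S100a6 and S100a11 lie between 1.12 and 1.196, the other members between 0.19 and 0.35, and the interval of S100a10 spans 0.

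Of 18 other genes listed for the family, 11 were not matched to a row and were not analysed here. Of the 7 matched, S100a3 alone passed the filter. S100a3, the gene before S100a4 on the chromosome, was at 2.25, 2.91, 4.29, 2.45 and 2.12 CPM in the sham rats and at 3.88, 4.92, 2.17, 3.89 and 4.40 CPM in the TBI rats. As in S100a4, sham replicate 3 was the highest sham rat and TBI replicate 3 the lowest TBI rat, while the order of the other rats was not the same. Its log2 change was 0.43 ± 0.219 (SE), with an adjusted p in edgeR of 0.662. S100a5, between S100a4 and S100a6, had at most 1 count in any library. Strand use in the counting is not given in the sources used here, so reads of overlapping neighbours cannot be told apart.

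Beyond the group means, the rats kept a similar position across members. TBI replicate 3 was the lowest TBI rat in 8 of the 8 tested members, and sham replicate 3 was the highest sham rat in 5 of the 8. Measured as log2 CPM minus the mean of all rats and averaged over the 8 members, TBI replicate 3 was at -0.38, within the sham range of -0.55 to 0.04, and the other TBI rats were from 0.25 to 0.65. Sham replicate 3, at 0.04, was the only sham rat above the mean of all rats. S100a10 broke this order, since sham replicate 3 was its lowest sham rat. The ribosomal RNA share was 26.1% in sham replicate 3 and 19.7% in TBI replicate 3, both within the range of the other rats. Each rat was also left out in turn. Without TBI replicate 3, the difference in S100a6 was 1.36 on the log2 scale with an adjusted p (edgeR) of 0.0384. In that fit 12 of 22431 rows passed in all. TBI replicate 3 was the lowest TBI rat in S100a6, so leaving it out raises the difference by construction and gives no support of its own. No other member passed in any fit that left out 1 rat.

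**Figure D3:**
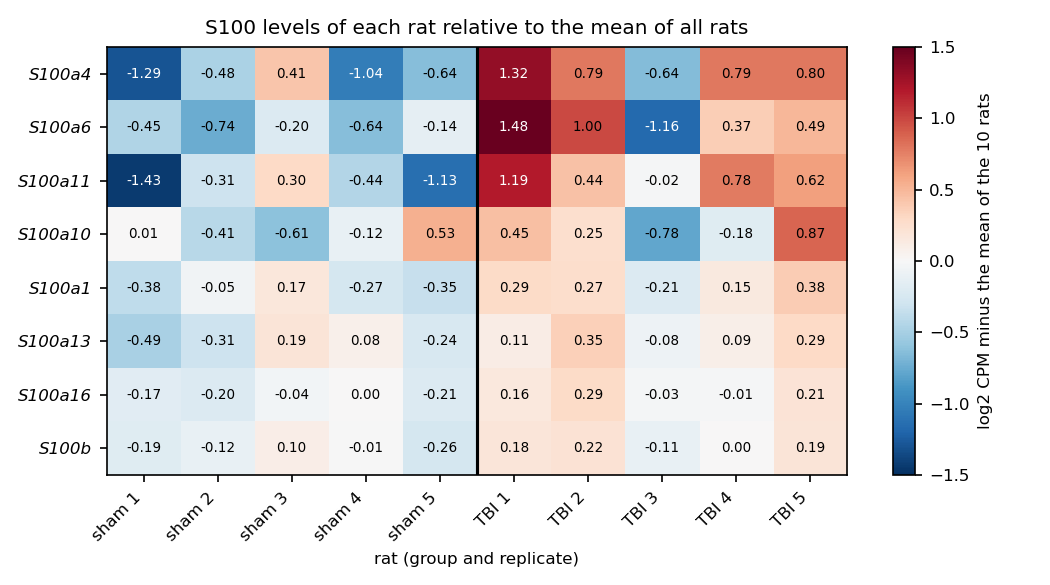
Log2 CPM of each tested member in each rat minus the mean of the 10 rats, with rats in columns, genes in rows, red above and blue below the mean. TBI replicate 3 is below the mean in each row, whereas TBI replicates 1, 2 and 5 are above it in each row.

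Among the astrocyte markers, Gfap differed by the most, and it carried most of the difference in their sum. The summed level of the 6 astrocyte markers was 1626, 1748, 2476, 1709 and 1692 CPM in the sham rats and 3348, 3174, 1790, 2522 and 2642 CPM in the TBI rats, so sham replicate 3 and TBI replicate 3 again lay toward the other group. Gfap, the intermediate filament of astrocytes and a reported partner of S100b, made up much of that sum. It was at 776, 910, 1628, 871 and 895 CPM in the sham rats and at 2307, 2191, 979, 1704 and 1819 CPM in the TBI rats. Its log2 change was 0.82 ± 0.268 (SE), and its adjusted p in edgeR was 0.514. Of the 6 astrocyte markers, Gfap and Aldh1l1 had an unadjusted p under 0.05 with a higher level in TBI. The glutamate transporters Slc1a2 and Slc1a3 had mean levels of 173 and 366 CPM in sham and 181 and 366 CPM in TBI, and the water channel Aqp4 was at 45.5 CPM in sham and 65.97 CPM in TBI. Microglia markers summed to 135 to 220 CPM in sham and 164 to 234 CPM in TBI, ependymal markers to 9.86 to 19.6 and 18.3 to 30.01 CPM, and markers of meninges and fibroblasts to 8.93 to 21.7 and 14.5 to 25.5 CPM. Red blood cell markers summed to 190 to 353 CPM in sham and 275 to 429.9 CPM in TBI, and 2 of the 5 had an unadjusted p under 0.05 with a higher level in TBI. Such a p was reached by 2 of 6 microglia, 2 of 4 ependymal, 3 of 6 meningeal and fibroblast and 0 of 6 oligodendrocyte markers. Over all rows tested the share was 4.89%. Oligodendrocyte markers summed to 2378 to 3424 CPM in sham and 2399 to 3213 CPM in TBI. The groups overlapped in each of these sums. The CA1 markers, whose sums are given above, had a median log2 change of 1.40, and 1 of the 3 had an unadjusted p under 0.05. No matched marker was at 0 in all libraries, and the part of these cell types in the S100 differences was not tested.

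Among the known partners and receptors of S100 proteins, the largest log2 changes were those of Anxa1 and Htr1b. Of 28 listed genes 24 were tested. An unadjusted p under 0.05 with a higher level in TBI was reached by 4 of the 24, against 4.89% of all rows. With a lower level it was reached by 0, against 3.00% of all rows, and 0 passed the adjusted threshold. The median log2 change of the 24 was 0.07. Annexin A1 (Anxa1), which binds S100a11, was at 0.343, 0.719, 1.10, 0.544 and 0.562 CPM in the sham rats and at 4.93, 2.42, 0.939, 1.202 and 2.64 CPM in the TBI rats. TBI replicate 3 alone lay below a sham rat, replicate 3, in the same pair as for S100a11. The log2 change of Anxa1 was 1.85 ± 0.501 (SE), with an adjusted p in edgeR of 0.483. Annexin A2 (Anxa2), which pairs with S100a10, was at 4.07 CPM ± 0.310 (SD, n = 5) in sham and 5.77 CPM ± 1.48 (SD, n = 5) in TBI, with a log2 change of 0.51 ± 0.158 (SE). Cyba, a subunit of the phagocyte oxidase, differed by 0.42 ± 0.151 (SE) on the log2 scale. Gfap, described above, is the other of the 4. The other annexins tested had log2 changes of 0.17 (Anxa5), -0.33 (Anxa6) and -0.03 (Anxa11). Those of the non-muscle myosins Myh9 and Myh10 were 0.06 and -0.04. The 95% interval of each of these spanned 0. Htr1b, a serotonin receptor that S100a10 binds, was chosen for mention after its values were seen. Its log2 change was 1.40 ± 0.637 (SE) with a 95% interval from -0.03 to 2.84 and an adjusted p in edgeR of 0.637, and it was above all sham rats in 3 of the 5 TBI rats. TBI replicate 3 lay among the sham rats, and TBI replicate 4, at 0.253 CPM, was below the lowest of them, at 0.375 CPM. In TBI replicates 1 to 5, Htr1b was at 2.75, 3.75, 0.909, 0.253 and 1.32 CPM. The CA1 markers summed to 216, 376, 101, 37.4 and 144 CPM in these rats, which is the same rank order. Among the sham rats the order was not the same. Whether Htr1b followed the share of CA1 tissue was not tested.

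Receptors and other partners had smaller or less certain differences. Ager, the receptor RAGE to which several S100 proteins bind outside the cell, was at 1.01 CPM ± 0.243 (SD, n = 5) in sham and 1.08 CPM ± 0.197 (SD, n = 5) in TBI. Its log2 change was 0.12 with a 95% interval from -0.34 to 0.57. Tlr4, the receptor of calprotectin, had a log2 change of 0.30 with an interval from -0.31 to 0.92. Cacybp, the partner of S100a6, had a log2 change of -0.12 with an interval from -0.30 to 0.07, and its direction turned when libraries were scaled by total counts. Fgf1, which S100a13 helps to export, had at most 13 counts in any library and a log2 change of 0.74 with an interval from -0.23 to 1.71. Ahnak, the scaffold of the complex of S100a10 and annexin A2, was not matched to a row and was not analysed here.

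Genes whose levels followed a member most closely over the 10 rats were sought among 8273 gene symbols with a mean of at least 5 CPM. For S100a6 these were Mmgt2, Hspb8, Tnfrsf19, Rassf4 and Nfe2l2, with Pearson correlations of log2 CPM from 0.902 to 0.957. After both genes were centred on their group means the correlations were from 0.859 to 0.938. The genes were picked on the same 10 rats, so the centred values give no separate support. Nfe2l2 encodes the transcription factor of the response to oxidative stress, and Hspb8 a small heat shock protein. For S100b they were Igf2, Gsta1, Plcd1, Mlc1 and Pltp, from 0.955 to 0.974, and from 0.928 to 0.965 after centring. Igf2, with the highest correlation at 0.974, is also on the list of meningeal and fibroblast markers used above. Mlc1 is a membrane protein of astrocyte endfeet. These are the highest of many correlations over few rats, which share library and dissection, and are given as a description.

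**Figure D4:**
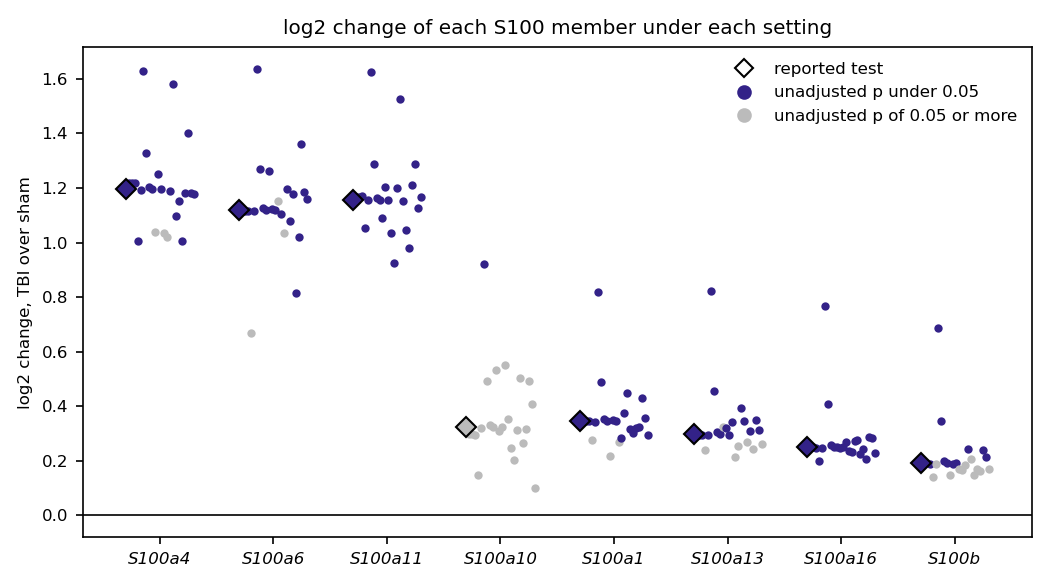
Log2 change, TBI over sham, of each tested member in the reported test (diamond) and in each of 23 alternatives (circles), coloured by whether the unadjusted p was under 0.05. Each of the 8 members stays above 0 in each fit, and S100a11 and S100a16 stay under a p of 0.05 in each.

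All 8 members kept a log2 change above 0 in each of the 23 alternatives. S100a11 and S100a16 kept an unadjusted p under 0.05 in 23 of 23, S100a1, S100a4 and S100a6 in 20, S100a13 in 16, S100b in 10 and S100a10 in 1. The count of 7 members with an unadjusted p under 0.05 became 3 when the ribosomal RNA share was added as a covariate (S100a6, S100a11 and S100a16) and 3 when sham replicates 4 and 5 were left out (S100a11, S100a13 and S100a16). In these fits 2.45% and 3.30% of all rows reached such a p with a higher level in TBI. The count was 4 without sham replicate 1 and 4 without sham replicate 2. There 4.46% and 3.26% of all rows reached such a p with a higher level in TBI.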

How the data were processed

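Messenger RNA of the left hippocampus of 5 sham and 5 TBI rats was poly-A selected and sequenced as single reads. The authors aligned reads to rat genome rn4 with BWA, counted them per transcript with a custom script, and deposited raw, unpooled counts with 1 row for each RefSeq RNA record. Of 32043 rows, the row of unmapped reads (12.8% to 26.1% of reads) and an empty row were left out. Symbols came from the RefSeq gene table of GRCr8, used for names and neighbours, and matched 54.2% of records. The members and lists were chosen with earlier results of these data known.

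Rows with at least 44 counts in total (the 30th percentile) were tested with edgeR 4.0.16 (quasi-likelihood F test, robust, TMM) in R 4.3.3, with Benjamini-Hochberg adjustment over 22431 rows. Library measures were compared with exact permutation tests (scipy 1.17.1). Alternatives used DESeq2 1.42.0, limma 3.58.1 and sva 3.50.0. The test was checked on simulated data. All 10 members were named, with partners that had a p under 0.05 or were set in the plan, and the 5 symbols most like S100a6 and S100b. Htr1b, the other annexins and the non-muscle myosins were added after their values were seen. Log2 CPM used a prior count of 2. No library was a copy of another: chi-square of counts per degree of freedom was at least 8.58 over 45 pairs. Replicate numbers follow sample order and pair no rats, and p-values measure the spread between rats.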

Additional observations from a re-analysis of the deposited data

Results flagged for a closer look

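In 62 groups of 5 rats (levels of the named genes, summed marker lists and the ribosomal RNA share), 4 held a rat whose distance to its nearest neighbour exceeded 0.71 of the group's range (the 95% critical value of Dixon). Chance gives about 3.1. None of the 4 was a level of an S100 member. Gfap was at 1628 CPM in sham replicate 3, above the other sham rats (776 to 910 CPM), and the summed astrocyte markers, which include Gfap, were at 2476 CPM in the same rat (others 1626 to 1748 CPM). Sham replicate 3 was also the highest sham rat for S100a1, S100a4, S100a11, S100a13 and S100b. Choroid plexus markers summed to 34.9 CPM in sham replicate 4 (others 5.98 to 13.95 CPM), one of the rats rich in ribosomal RNA. Dentate granule cell markers summed to 54.5 CPM in sham replicate 1 (others 167 to 190 CPM), the rat with the lowest S100a1, S100a4, S100a11 and S100a13 among the sham rats.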

How the results depend on the processing

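The number of S100 members past an adjusted p of 0.05 was 0 in the reported test and in each alternative but 2. With total counts as library size it was 3 (S100a4, S100a6 and S100a11), where 92 of all 22431 rows passed. Under that scaling all rows had a median log2 change of 0.50. Without TBI replicate 3 it was 1 (S100a6), where 12 of all 22431 rows passed. The range was 0 to 1 over the 10 fits that left out a rat. The number with an unadjusted p under 0.05 was 7, and it was 3 with voom (S100a4, S100a11 and S100a16), 3 with the ribosomal RNA covariate, 3 without the libraries above 50% ribosomal RNA and 4 to 7 when a rat was left out. The share of all rows with such a p and a higher level in TBI was 4.89% in the reported test and 4.70% with voom. It was 2.45% with the covariate, 3.30% without those libraries and 3.26% to 7.05% when a rat was left out. The median log2 change of the members, 0.33, was 0.87 with total counts as library size. Partners with such a p, 4 in the reported test, were 8 with total counts as library size and 4 to 8 when a rat was left out, with 8 without TBI replicate 3. Of all 22431 rows, 1769 had such a p in either direction in the reported test. The number was 3788 with total counts and 2001 without TBI replicate 3. Reversed directions were those of Cacybp, at 0.39 with total counts and 0.036 with total counts outside ribosomal RNA, and of Ager, at -0.0060 without sham replicate 2 (range -0.0060 to 0.24 when a rat was left out). Why the results moved between settings was not tested. Without a filter, S100a9 had a p of 0.0259 on 10 counts in all. No paired analysis was possible because the replicate numbers pair no rats. Few counts limit S100a8, S100a9, S100a11 and S100a6.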
